A study of Mus musculus with 10 samples.

Results

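The cytosolic ribosomal protein genes were examined in neurosphere cultures of the adult mouse subependymal zone, in the RNA recovered by immunoprecipitation with an antibody to the FLAG tag. They were taken by name, as the protein-coding genes whose symbol follows the Rpl and Rps pattern, together with Rpsa, Rplp0, Rplp1 and Rplp2 and without the Rps6k kinases. This gave 81 genes of the 15899 in the table, 32 of the 40S subunit and 49 of the 60S subunit. Of 79 canonical ribosomal protein genes listed, 77 were members, and the rest fell outside the name pattern. The other 4 members were the paralogues Rpl22l1, Rpl36al, Rpl7l1 and Rps27l. No value of the table was used to choose the genes, but the gene set itself was proposed with other results of these libraries known.

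The FLAG cultures came from mice with a FLAG tag knocked into both copies of Mex3a (Mex3aFLAG/FLAG), so that the endogenous RNA-binding protein MEX3A carries the tag in whichever cells of the culture make it. The WT cultures came from the same background without the tag and measured nonspecific pulldown. The subependymal zone was taken from mice labelled as 10 weeks old, and all cultures were grown with EGF and FGF. Cultures were either crosslinked with formaldehyde before the pulldown (2 libraries of each genotype) or left native (3 libraries of each genotype), and the libraries of a group were described as biological replicates. No input RNA was analysed here.

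Each ribosome carries a fixed set of ribosomal proteins, and the subunits are put together in the nucleolus before their export to the cytoplasm. The mRNAs of these proteins are short, abundant in growing cells and, as a class, begin with a run of pyrimidines right at the cap, the terminal oligopyrimidine (TOP) motif, through which mTOR signalling sets their translation. Many of the genes also hold small nucleolar RNAs (snoRNAs) in their introns, and most have many processed pseudogenes elsewhere in the genome.

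The start of several members is shown because it is the best known sequence feature of the class. RefSeq start positions on GRCm38.p6 were found for 61 of the 81 members. Within 50 bases on either side of the start, an oligopyrimidine run (at least 8 consecutive C or T bases on the gene's own strand) was present in 51 of these 61 members (83.6%), against 39.3% of all 27025 genes with a RefSeq start. The opposite strand held such a run in 26.2% of the members and in 41.1% of all genes. The letters CTTTCC, which can lie inside such a run, were found on the gene's strand in 31.1% of the members and 5.43% of all genes, and on the opposite strand in 3.28% and 5.12%. In the lines that follow, capitals mark the longest run. The genes from Rpl14 to Rps27 had the RNA that fell with crosslinking, as given further on, and in Rps6, Rpl5 and Rpl10a no call was made.
Rpl14 (chr9:120571501-120571528, plus strand): agggcgggCCCTCTCTCTTCTCgctgag
Rps26 (chr10:128626484-128626511, minus strand): ccgccggaTCCTCTTTCgagtcttggct
Rpl38 (chr11:114668570-114668597, plus strand): aagcctcgTTCTTTCCCCgttctcttcg
Rps27 (chr3:90213631-90213658, minus strand): cgctttcgCTCCTTTCCggcggtgacga
Rps6 (chr4:86857349-86857376, minus strand): aagtcgggCCTCTTTTTCgtgacgcctc
Rpl5 (chr5:107900500-107900527, plus strand): tacagccaCTCTTTCTCacgtcgcttgc
Rpl10a (chr17:28328454-28328481, plus strand): tggtggcgCCCCCCCagcggccgcaaac

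Of the 7 windows, 6 held a run of 9 or more pyrimidines. The run shown for Rpl10a is 7 bases long, all C, and so is below the minimum of 8, but RefSeq gives this gene another start, whose window holds a run of 10, and it is counted among the 51. The annotated start is not always the true first base of the RNA, so a run in the window is a match of letters and not a mapped TOP motif.

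The table holds log2 values that the authors normalized, with nearly the same spread of values in every library, so each value is relative to the rest of its library. Less RNA of a gene and more RNA of other genes cannot be told apart in such values, nor can fewer cells of a type and less RNA per cell. The depth of each library is unknown. FLAG native replicates 1 and 3 had 329 and 178 genes tied at their lowest value, against at most 3 in each other library, and no member lay at the lowest value of any library. FLAG native replicate 2 stood apart from the other FLAG native libraries and had the lowest array weight (0.189) of the 10. FLAG crosslinked replicate 1 stood apart in its snoRNA values. The counts of calls, and the named values that turned on either library, are also given without it. Markers of neural stem cells were well above the middle of the table (Nes between 6.85 and 8.56, Egfr between 10.10 and 10.90 over the 10 libraries), while Gfap was not among the genes analysed here. None of 3 neuroblast markers was in the table, Pecam1 of endothelial cells lay between -0.49 and 0.62, and of the 2 microglia markers in the table Cx3cr1 lay between 3.94 and 4.61 and Csf1r between -0.15 and 0.97.

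The ribosomal protein genes were lower in the crosslinked than in the native libraries, in WT and in FLAG alike. Their median was 2.83 and 2.82 in the FLAG crosslinked libraries and 2.62 and 2.54 in the WT crosslinked libraries. It was 4.74, 3.91 and 4.52 in the FLAG native libraries and 4.25, 3.72 and 3.74 in the WT native libraries, so that the lowest native library lay above the highest crosslinked one. The median of all genes stayed between 2.88 and 2.89. On the linear scale the 81 genes made up 0.0866% and 0.129% of the summed values of the FLAG crosslinked libraries and 0.115% and 0.112% of the WT crosslinked libraries, against 0.311%, 0.161% and 0.335% in FLAG native and 0.240%, 0.168% and 0.137% in WT native. Without Rps3, the member with the highest mean value over the libraries, the share was 0.0721% to 0.0852% in the crosslinked and 0.118% to 0.321% in the native libraries.

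**Figure D1:**
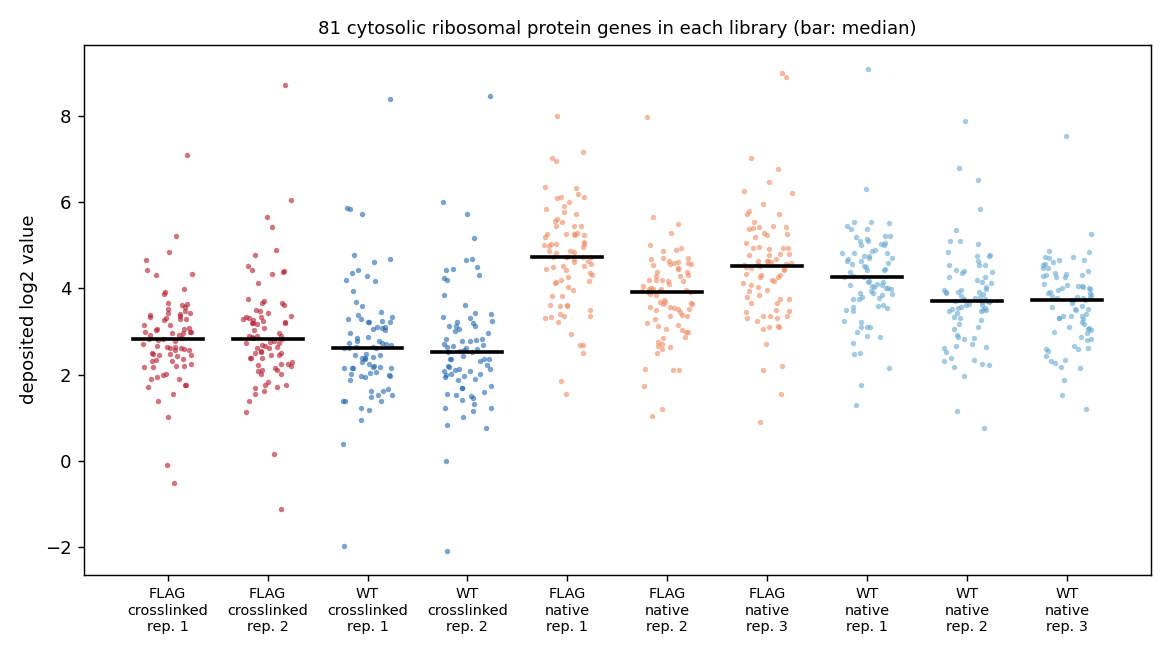
Deposited log2 values (vertical axis) of the 81 cytosolic ribosomal protein genes in each of the 10 libraries, with 1 point per gene and a bar at the median. The medians of the 4 crosslinked libraries lie between 2.54 and 2.83 and those of the 6 native libraries between 3.72 and 4.74.

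The comparison of protocols asks how far formaldehyde changes the RNA that is recovered, in WT as nonspecific RNA and in FLAG as MEX3A-bound and nonspecific RNA together. Crosslinked and native libraries were compared with limma in a fit of all 4 groups, with Benjamini-Hochberg adjustment over all genes, and a gene was called at an adjusted p under 0.05 and a log2 fold change beyond 0.58 in either direction. In WT, 11 of the 81 members were called lower with crosslinking and 0 higher, against 0.289% of all genes called lower. In FLAG, 15 members were called lower and 0 higher, against 0.396% of all genes. The median log2 fold change of the members was -1.18 in WT and -1.47 in FLAG, and that of all genes was 0.02 and 0.11. At an unadjusted p under 0.05 and the same fold, 58 members were lower in WT and 72 in FLAG, against 3.55% and 7.54% of all genes. Every crosslinked library lay below every native library for 67 members in WT, against 12.5% of all genes, for 71 members in FLAG, against 13.5%, and for 66 members in both genotypes, against 6.92%. The WT and FLAG comparisons share no library. Across the 81 genes the log2 fold changes of WT and FLAG had a Pearson correlation of 0.81 and a Spearman correlation of 0.83, and across all genes of 0.62 and 0.45, which describes genes that share libraries and are not independent.

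The adjusted p-values of the called members lay just under the threshold, and the calls moved with the samples and the design used. Libraries with the same replicate number deviated together across the protocols in all 4 pairs, and with the replicate number as a block 0 members were called in WT and 2 in FLAG, with medians of -1.23 and -1.49. With the block set within each genotype, an alternative chosen after seeing the data, 0 were called in WT and 0 in FLAG, with medians of -1.30 and -1.34. Without FLAG native replicate 2, 68 members were called lower in FLAG, against 9.08% of all genes, and without any other single FLAG crosslinked or native library the count was 0. In WT, leaving out native replicate 2 gave 18 called members and leaving out any other WT library gave 0. No share of all genes is given for the block fits or for these WT fits. Their counts show only how the calls moved and do not set the members against other genes. The median log2 fold change stayed between -1.30 and -1.02 in WT and between -1.71 and -1.25 in FLAG under every alternative. A fit of both genotypes together, with genotype as a covariate, was added after the data had been seen. It called 58 members lower, against 2.94% of all genes, with a median of -1.28 for the members and 0.06 for all genes.

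**Figure D2:**
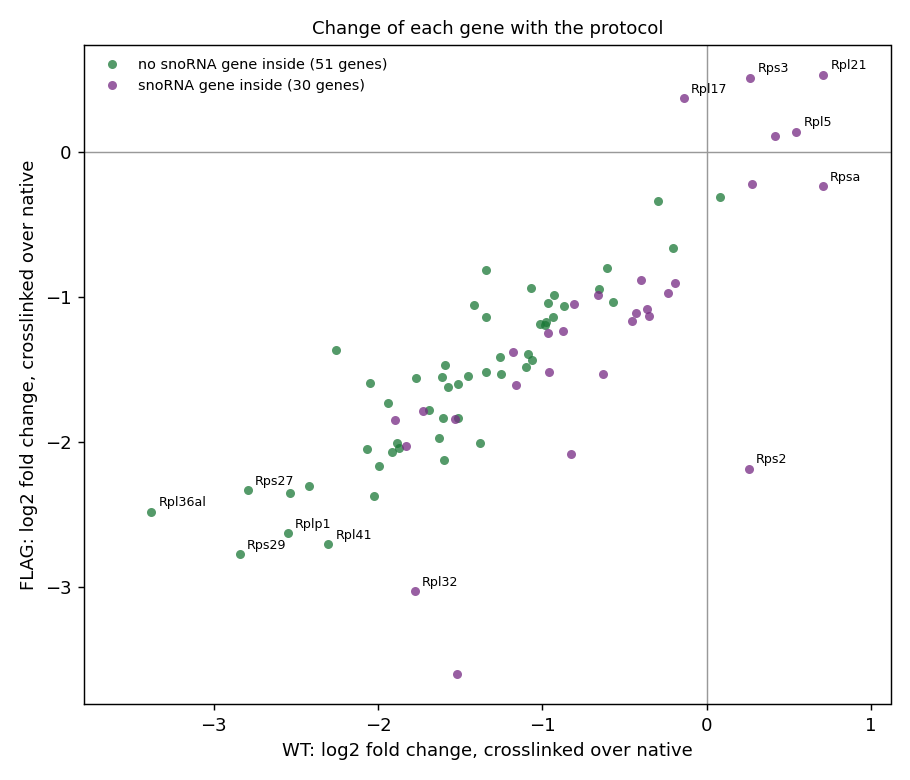
Log2 fold change of crosslinked over native libraries in WT (horizontal axis) and in FLAG (vertical axis) for each of the 81 genes, coloured by whether a snoRNA gene lies inside the gene. Most genes lie at the lower left, with medians of -1.18 and -1.47, and the genes near or above 0 in either genotype are mostly snoRNA hosts.

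The largest decreases were in short mRNAs for small proteins of both subunits. Rps29, a zinc-binding protein of the 40S subunit (chr12:69157722-69159186), stood at 2.65 and 2.61 in the FLAG crosslinked and 1.96 and 1.68 in the WT crosslinked libraries, and at 6.10, 4.72 and 5.40 in FLAG native and 5.45, 3.98 and 4.56 in WT native. All crosslinked values lay below all native ones. Rps29 fell by 2.84 ± 0.45 (SE) on the log2 scale in WT and by 2.77 ± 0.45 in FLAG (limma, Benjamini-Hochberg adjusted p = 0.0386 and 0.0481). Rplp1, an acidic protein of the 60S stalk that recruits translation factors (chr9:61913284-61914542), stood at 3.29 and 2.89 in FLAG and 2.46 and 2.37 in WT after crosslinking, and at 6.34, 5.02 and 5.80 in FLAG and 5.52, 4.54 and 4.84 in WT without it. The 2 sets of libraries did not overlap, and Rplp1 fell by 2.55 ± 0.38 in WT and by 2.63 ± 0.38 in FLAG (adjusted p = 0.0317 and 0.0423, limma with Benjamini-Hochberg). Rpl41, the smallest protein of the ribosome, fell by 2.30 ± 0.33 in WT and 2.70 ± 0.33 in FLAG (adjusted p = 0.0317 and 0.0313, limma).

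A total of 7 members were called lower in both genotypes, namely Rpl14, Rpl38, Rpl41, Rpl7, Rplp1, Rps26 and Rps29, against 0.201% of all genes. Rps26, which lies near the mRNA exit channel of the 40S subunit, fell by 2.42 ± 0.40 in WT and 2.30 ± 0.40 in FLAG. Rpl38 and Rpl14, of the 60S subunit, fell by 2.07 ± 0.33 and 2.00 ± 0.32 in WT and by 2.05 ± 0.33 and 2.17 ± 0.32 in FLAG. Rpl36al, Rpl9, Rps14 and Rps27 were called in WT but not in FLAG, and the members called in FLAG but not in WT included Rpl11, Rpl19, Rpl28, Rpl35, Rps15 and Rps23. No member had a called difference between the genotypes in this change (0 of 81 at an adjusted p under 0.05 and 0 at an unadjusted one, against 0% and 0.415% of all genes in either direction, limma interaction test). With so few genes past either threshold, this count says nothing about the members. Rpl36al (chr12:69182731-69184083), a paralogue of Rpl36a, had the largest change of all members in WT. It stood at -1.96 and -2.08 in WT crosslinked against 1.77, 0.77 and 1.54 in WT native, and at -0.51 and -1.12 in FLAG crosslinked against 1.85, 1.04 and 2.11 in FLAG native. The groups did not overlap, and it fell by 3.38 ± 0.46 in WT (adjusted p = 0.0317, limma) with a log2 fold change of -2.48 ± 0.46 in FLAG (adjusted p = 0.0568).

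Members in the middle of the set showed the same order of libraries with a smaller difference. Rpl11, which together with Rpl5 and 5S rRNA forms the particle that restrains MDM2, stood at 3.38 and 3.19 in FLAG crosslinked and 3.21 and 3.13 in WT crosslinked, against 4.68, 4.11 and 4.64 in FLAG native and 4.29, 4.12 and 4.04 in WT native. It fell by 1.19 ± 0.21 in FLAG (limma adjusted p = 0.0495), and its log2 fold change in WT was -0.98 ± 0.21 (adjusted p = 0.109). Rps6, the substrate of the S6 kinases, stood at 2.21 and 2.11 in FLAG and 1.99 and 1.96 in WT after crosslinking and at 3.50, 2.84 and 3.32 in FLAG and 2.99, 3.10 and 2.45 in WT in native conditions. Its log2 fold changes of -0.87 ± 0.27 and -1.06 ± 0.27 were not called (limma adjusted p = 0.354 and 0.123), although the crosslinked and native values did not overlap.

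**Figure D3:**
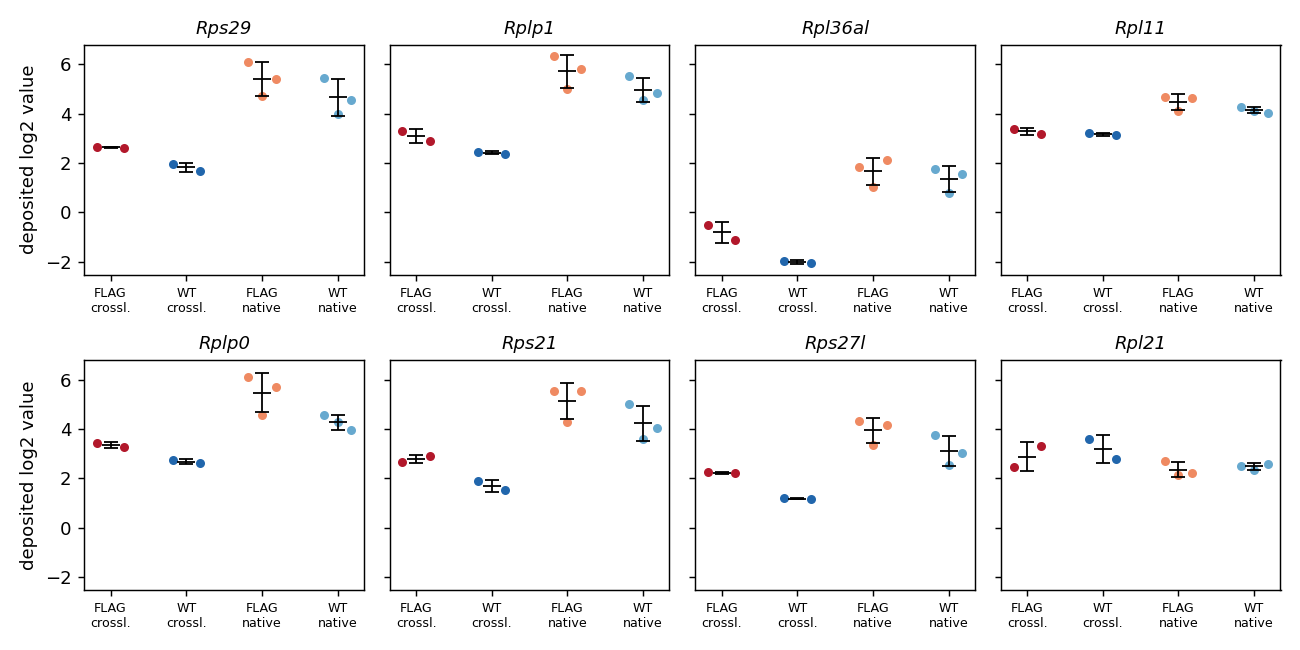
Deposited log2 values (vertical axis) of 8 members by group, with 1 point per library and bars for the mean ± SD of 2 crosslinked or 3 native libraries. Rps29, Rplp1 and Rpl36al lie lower in all crosslinked libraries, Rplp0, Rps21 and Rps27l lie higher in FLAG than in WT after crosslinking, and Rpl21 follows neither pattern.

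A group of members did not follow the others. For 15 of the 81 the crosslinked libraries did not all lie below the native ones in both genotypes, and 12 of these 15 hold a snoRNA gene. Rpl21, a 60S protein, had the highest log2 fold change of the members in both genotypes, at 0.71 ± 0.33 in WT and 0.53 ± 0.33 in FLAG (limma adjusted p = 0.674 and 0.452). It stood at 2.46 and 3.29 in FLAG and 3.59 and 2.78 in WT after crosslinking and at 2.69, 2.12 and 2.21 in FLAG and 2.50, 2.35 and 2.59 in WT in native conditions, with overlap between FLAG crosslinked and native. Rpl5, the partner of Rpl11 in the 5S particle, stood at 4.66 and 5.42 in FLAG crosslinked, 5.73 and 5.17 in WT crosslinked, 4.95, 4.46 and 5.29 in FLAG native and 5.09, 4.74 and 4.87 in WT native. In FLAG the Rpl5 ranges overlapped, and the log2 fold change was 0.54 ± 0.30 in WT and 0.14 ± 0.30 in FLAG. Rpsa, the 40S protein also known as the laminin receptor, had 0.71 ± 0.47 in WT and -0.24 ± 0.47 in FLAG, Rplp2, the partner of Rplp1 in the stalk, had 0.28 ± 0.38 and -0.22 ± 0.38, and Rpl10, which helps join the subunits, had 0.42 ± 0.33 and 0.11 ± 0.33, none of them called. Rplp1 and Rplp2, which form one stalk, had log2 fold changes on different sides of 0 in WT, a difference that was not tested.

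SnoRNA genes lie inside 30 of the 81 members (58 snoRNA genes in GENCODE M21), and in 24 of these members a snoRNA overlaps an annotated exon of the host, as in a transcript that keeps its intron. Of the snoRNA genes, 25 have a row of their own in the table, in 18 hosts. The hosts held 9 of the 10 highest member values and 13 of the 20 highest. Per kb of exon, the median level over the 10 libraries was 3.12 in the 30 hosts and 2.43 in the 51 other members. The median log2 fold change with crosslinking was -0.54 in WT and -1.15 in FLAG for the hosts, and -1.51 and -1.54 for the members with no snoRNA gene. All 11 members called in WT and 14 of the 15 called in FLAG held no snoRNA gene, and 48 of the 51 members without one had all crosslinked below all native libraries, against 18 of the 30 hosts.

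Over the 25 snoRNA rows the median log2 fold change with crosslinking was 1.38 in WT and 0.91 in FLAG, of opposite sign to that of the hosts, and 0 rows were called. Rps3, a 40S protein at the mRNA entry site, stood at 7.10 and 8.71 in FLAG crosslinked, 8.40 and 8.47 in WT crosslinked, 7.17, 7.98 and 7.03 in FLAG native and 9.10, 7.89 and 7.54 in WT native. Snord15b, which lies inside Rps3 stood at 6.50 and 8.30, 7.87 and 8.06, 6.05, 7.61 and 6.22 and 8.78, 7.49 and 6.93 in the same groups. On the linear scale Snord15b was 46.2% to 80.5% of the value of Rps3, and both were lowest in FLAG crosslinked replicate 1 among the crosslinked libraries. Rps3 holds another snoRNA row, Snord15a, at 7.23% to 27.8% of its value. In WT crosslinked replicates 1 and 2, Snord15b was 69.5% and 74.9% of Rps3 and Snord15a was 27.8% and 22.7%. The rows of these snoRNAs were thus nearly as large as the Rps3 value there. Snora64 was 17.3% to 79.6% of Rps2, Snora33 was 12.6% to 74.5% of Rps12, Snora7a was 7.93% to 58.8% of Rpl32 and Snora70 was 4.83% to 80.9% of Rpl10. The median of this share over the libraries was above 50% for 3 of the 25 snoRNA rows and under 10% for 7. All 25 snoRNA rows were lowest in FLAG crosslinked replicate 1 among the 4 crosslinked libraries, and 27 of the 30 hosts were lower there than in FLAG crosslinked replicate 2, against 14 of the 51 other members. Whether reads from snoRNA precursors contribute to the values of their hosts was not tested.

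**Figure D4:**
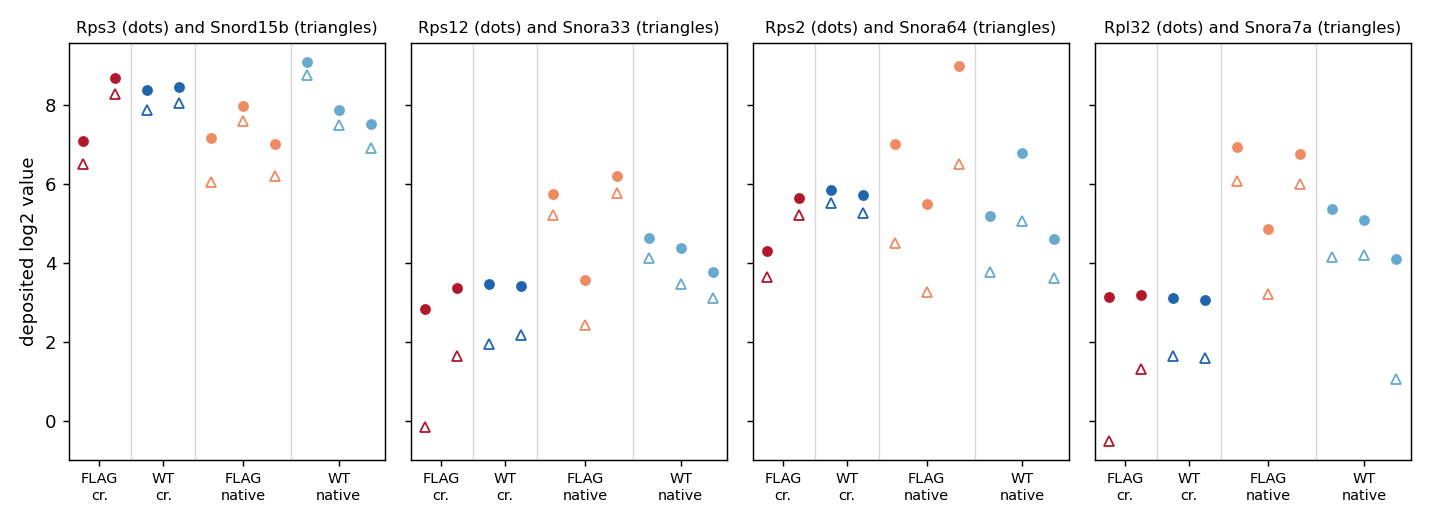
Deposited log2 values (vertical axis) of 4 host genes (dots) and of a snoRNA inside each (open triangles) in the 10 libraries, grouped along the horizontal axis (cr., crosslinked). Snord15b stays close under Rps3, and all 4 snoRNA rows are at their crosslinked minimum in FLAG replicate 1.

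The change with crosslinking also varied with the length of the members, whose exons cover a median of 1781 bases, against 4755 for all protein-coding genes, and whose genes span a median of 3289 bases, against 28595. The 27 members with the shortest exonic length (383 to 1535 bases) showed a median change of -1.69 (log2) in WT and -1.78 in FLAG. The 27 longest (2451 to 6270 bases) had -0.93 and -1.14. Across the 81 members the Pearson correlation of the change with log2 exonic length was 0.55 in WT and 0.55 in FLAG, and across protein-coding genes it was 0.15 and 0.25, as a description of genes of the same libraries. Removing each library's trend on length and GC content left the calls in WT at 11 and changed those in FLAG from 15 to 1, while the median of the members was -1.11 in WT and -1.36 in FLAG. The part of snoRNA content in the relation to length was not tested, since 12 of the 27 longest and 7 of the 27 shortest members are hosts.

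The 3 lists of genes with related roles given next had smaller median changes than the members, and mitochondrial mRNAs had larger ones. Among 19 other TOP mRNAs, which code for elongation and initiation factors and their partners, 0 were called and the medians were -0.32 and -0.55. Of 78 mitochondrial ribosomal protein genes, 1 was called lower in WT and 1 in FLAG, with medians of -0.28 and -0.33. Of 35 ribosome biogenesis genes, 0 were called, with medians of 0.04 and -0.05. With 0.289% of all genes called lower in WT and 0.396% in FLAG, counts of 0 or 1 say little about lists of this size. The mRNAs made inside mitochondria fell most, since 4 of 7 were called lower in WT and 7 of 7 in FLAG, with medians of -3.53 and -3.99 on the log2 scale. Their library median ranged from 4.00 to 4.90 with crosslinking and from 7.28 to 9.31 in native conditions, so these mRNAs moved with the ribosomal protein genes, and their part in the result was not tested. Of 5 nuclear noncoding RNAs measured, 0 were called, which also says little for so few genes, with medians of 0.20 in WT and 0.40 in FLAG. Malat1, with the largest difference of the 5, stood higher in the crosslinked (13.39 to 13.79) than in the native libraries (10.71 to 12.46).

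FLAG was then compared with WT, which asks which RNAs come down with tagged MEX3A beyond the nonspecific background. The ribosomal protein genes lay slightly higher in FLAG, and no member was called in any of the comparisons. Of all genes, 0% were called higher after crosslinking, 0% in native conditions and 0.264% over all libraries, so the counts of 0 say nothing about the members. After crosslinking the median log2 fold change was 0.22 for the members and -0.02 for all genes, and 61 of the 81 members were above 0. In native conditions it was 0.49 against -0.04, with 73 members above 0. With both protocols in 1 fit and protocol as a covariate it was 0.36 against -0.03, again with 73 above 0. At an unadjusted p under 0.05 and a log2 fold change above 0.58, 10 members were higher after crosslinking, against 2.78% of all genes, 5 in native conditions, against 7.77%, and 11 over all libraries, against 7.24%, and 0 were lower in each case. Adjusted p-values of the members were at least 0.315 after crosslinking, 0.241 in native conditions and 0.110 over all libraries (limma, Benjamini-Hochberg).

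The separation of FLAG from WT is given for each protocol, and with 2 libraries a group after crosslinking and 3 in native conditions the counts cannot be set against each other. After crosslinking both FLAG libraries lay above both WT libraries for 51 of the 81 members, against 19.1% of all genes. In native conditions all 3 FLAG libraries exceeded all 3 WT libraries for 1 member, against 8.62% of all genes. FLAG native replicate 2 was the lowest FLAG native library for 75 of the 81 members, and WT native replicate 1 was the highest WT native library for 66. Without FLAG native replicate 2, 29 members were called higher in FLAG in native conditions, against 9.12% of all genes, and 10 over all libraries, against 3.25%. The native median was then 0.79, and without FLAG native replicate 1, 2 or 3 and without each WT native library it ranged from 0.29 to 0.79. Leaving out the library that is lowest for most members raises their FLAG level. The FLAG native libraries that remain are those with 329 and 178 genes tied at the lowest value. Without any other single library, 0 members were called in native conditions and 0 over all libraries. The difference of the FLAG effect between the protocols had a median of -0.20 over the members, which is the same interaction test as above, with 0 members and 0% of all genes called, and 0 members against 0.415% of all genes at an unadjusted p under 0.05 and a log2 difference beyond 0.58. Markers of neural stem cells also lay higher in FLAG, with a median log2 fold change of 0.79 over 7 markers in all libraries and none called. It was 0.44 for 2 oligodendrocyte lineage markers, 0.11 for 2 microglia markers, 0.35 for 1 ependymal marker and -0.58 for 1 endothelial marker. The paper reports Sox2, one of the stem cell markers, as bound by MEX3A. Binding by MEX3A and culture composition cannot be told apart in these values, and the part of either in the FLAG result was not tested.

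**Figure D5:**
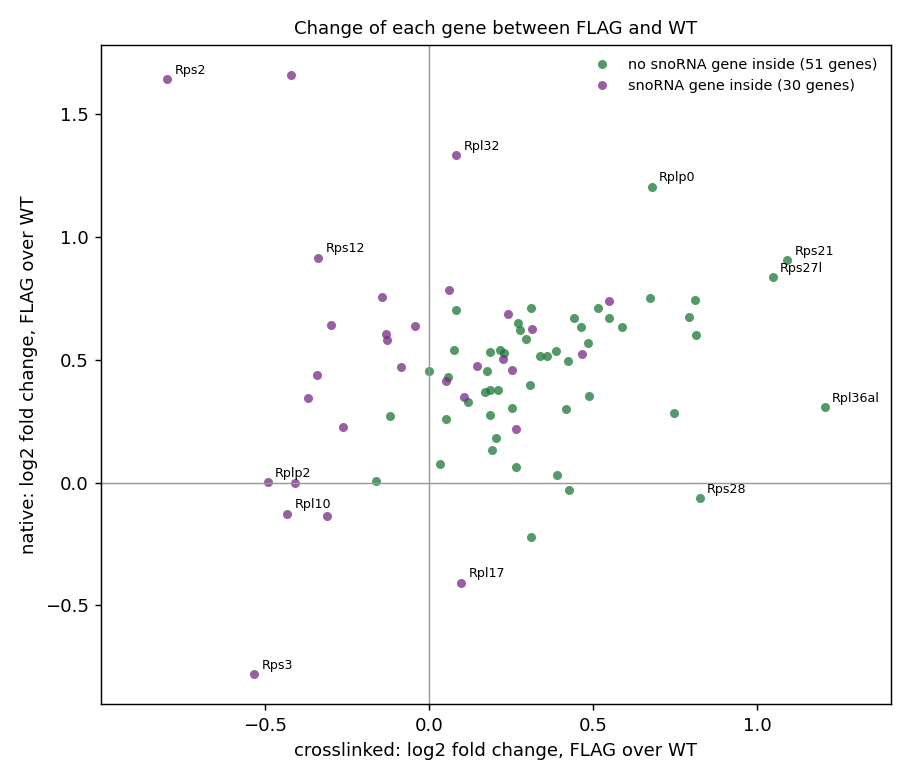
Log2 fold change of FLAG over WT after crosslinking (horizontal axis) and in native conditions (vertical axis) for each of the 81 genes, coloured by whether a snoRNA gene lies inside the gene. Medians are 0.22 and 0.49, no gene is called in either comparison, and the genes at the left edge and the top are mostly snoRNA hosts.

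Rplp0, the protein that anchors the 60S stalk (chr5:115559467-115563727), was the member with the highest fold change over all libraries and the only one with every FLAG library above every WT library in both protocols, a pattern shown by 4.84% of all genes. It stood at 3.43 and 3.27 in FLAG and 2.74 and 2.61 in WT after crosslinking, and at 6.12, 4.59 and 5.72 in FLAG and 4.58, 4.28 and 3.96 in WT in native conditions, where the lowest FLAG value lay just above the highest WT value. Its log2 fold change was 0.68 ± 0.12 (SE) after crosslinking, 1.21 ± 0.37 in native conditions and 0.99 ± 0.26 over all libraries (limma adjusted p = 0.381, 0.241 and 0.11). Without FLAG native replicate 2 it was called in native conditions, at 1.65 (adjusted p = 0.0065, limma), and over all libraries, at 1.21 (adjusted p = 0.0219, limma). For the other stalk proteins, Rplp1 had 0.72 ± 0.25 and Rplp2 -0.20 ± 0.26 over all libraries (adjusted p = 0.166 and 0.654, limma).

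Rps21, a small 40S protein, stood at 2.65 and 2.90 in FLAG crosslinked against 1.87 and 1.51 in WT crosslinked, and at 5.55, 4.30 and 5.55 in FLAG native against 5.02, 3.61 and 4.05 in WT native. The crosslinked groups did not overlap and the native ones did, with log2 fold changes of 1.09 ± 0.19 and 0.91 ± 0.43 and of 0.98 ± 0.30 over all libraries (limma adjusted p = 0.137 for the last). Rps27l, the p53-responsive paralogue of Rps27, stood at 2.24 and 2.20 in FLAG crosslinked against 1.18 and 1.16 in WT crosslinked, and at 4.31, 3.36 and 4.17 in FLAG native against 3.75, 2.54 and 3.04 in WT native. Its crosslinked groups lay about as far apart as those of Rps21 and its native groups overlapped, and over all libraries it had 0.92 ± 0.25 (adjusted p = 0.11, limma). Without FLAG native replicate 2, Rps21 and Rps27l were called over all libraries, at 1.22 and 1.09 (limma adjusted p = 0.0337 and 0.0314). After crosslinking, Rpl36al had 1.20 ± 0.51 and Rps28, a small 40S protein, 0.82 ± 0.18, while their native values were 0.31 ± 0.41 and -0.06 ± 0.41. Rpl32, a snoRNA host of the 60S subunit, had 0.08 ± 0.09 after crosslinking, 1.33 ± 0.54 in native conditions and 0.83 ± 0.42 over all libraries. Without FLAG native replicate 2, Rpl32 was called in native conditions, at 2.00 (limma adjusted p = 0.0109).

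At the other end stood mostly snoRNA hosts. Rps3 had a log2 fold change of -0.53 ± 0.57 after crosslinking, -0.78 ± 0.40 in native conditions and -0.68 ± 0.35 over all libraries (limma adjusted p = 0.281), and without FLAG crosslinked replicate 1 the first was 0.27. Rps2, a 40S protein, stood at 4.31 and 5.66 in FLAG crosslinked against 5.85 and 5.73 in WT crosslinked, and at 7.03, 5.49 and 8.99 in FLAG native against 5.20, 6.79 and 4.60 in WT native. Here FLAG crosslinked replicate 1 lay well under its group mate, and FLAG native replicate 3 lay far above the others. Rps2 had the lowest log2 fold change after crosslinking, -0.80 ± 0.48, and one of the highest in native conditions, 1.64 ± 0.83, and the difference between the protocols, -2.44 ± 1.30, was not called (limma adjusted p = 0.97). Rplp2 and Rpl10 had -0.49 ± 0.29 and -0.43 ± 0.40 after crosslinking. Without FLAG crosslinked replicate 1, Rps2 had -0.12, Rplp2 -0.10 and Rpl10 0.12. Without FLAG native replicate 2, Rps2 was called higher in native conditions, at 2.48 (limma adjusted p = 0.0401). In native conditions Rpl17 had -0.41 ± 0.35, Rpl35a -0.22 ± 0.33 and Rpl21 -0.14 ± 0.27, and Rpl35a, which holds no snoRNA gene, turned to 0.07 without WT native replicate 1.

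Levels of different members were compared per kb of exon, as the mean log2 value over the 10 libraries less log2 of the exonic length. Rps3 was highest at 5.77, followed by Rplp1 at 5.31 and Rps2 at 5.09, and Rpl29 and Rpl36al were lowest at 0.61 and -0.10. The values of snoRNA rows were not subtracted from those of hosts such as Rps3 and Rps2. Of the paralogue pairs, Rpl22 stood at 2.36 per kb and Rpl22l1 at 1.06, Rps27 at 3.70 and Rps27l at 3.09, Rpl7 at 2.69 and Rpl7l1 at 1.22, and Rpl36a at 1.79 and Rpl36al at -0.10. In each pair the canonical gene had the higher level per kb. Rpl7, at -1.88 ± 0.30 in WT and -2.00 ± 0.30 in FLAG, was called lower with crosslinking in both (limma adjusted p = 0.0402 and 0.0466), whereas Rpl7l1 had -0.30 ± 0.22 and -0.34 ± 0.22, and Rpl22 had -0.65 ± 0.26 and -0.94 ± 0.26 against -1.41 ± 0.39 and -1.06 ± 0.39 for Rpl22l1. The differences within pairs were not tested. Rpl39 had -1.72 ± 0.38 in WT and -1.78 ± 0.38 in FLAG and Rpl3 had -0.36 ± 0.37 and -1.08 ± 0.37, while Rpl39l, Rpl3l and Rpl10l were not analysed here.

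Reads of these genes can also fit their pseudogenes. Of all 75-base windows of a member's transcript, a median of 48.0% also occurred elsewhere in the genome, from 0% in Rps3 to 99.6% in Rps27, and 39 of the 81 members had more than 50% of such windows. The share was 74.1% in Rps29, 46.4% in Rplp1, 62.8% in Rpl36al, 34.1% in Rplp0 and 12.2% in Rps27l. Values of members with high shares are uncertain, because reads of near-identical copies could be split or dropped in counting. The change with crosslinking showed little relation to this share (Pearson correlation over the 81 members -0.05 in WT and 0.02 in FLAG, as a description). Of 5 pseudogene rows named after members, 0 were called in either genotype, which says little for so few rows. Their median log2 fold change was -0.84 in WT and -0.91 in FLAG.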

How the data were processed

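RIP-seq libraries of FLAG and WT neurosphere cultures were analysed from the 1 matrix that the authors deposited, with log2 values for 15899 genes in 10 libraries. According to the submitters' notes and methods, adapters and poor bases were cut off (Cutadapt, Trimmomatic), HISAT2 aligned the reads to GRCm38, and featureCounts assigned them to genes. For normalization the authors' methods name DESeq2 on the raw counts, while the submitters' processing notes list limma, so which of them gave the deposited log2 values is not settled. The near-identical distribution of the deposited log2 values in each library is that of quantile normalization, which the sources used here do not mention. Libraries were built from a stranded kit with random hexamers, without selection of polyadenylated RNA. The handling of reads with several matches was not given in the sources used here. Whole reads could not be recovered, so the depth and the counting error are unknown.

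The log2 values were used as deposited, without a pseudocount, and groups came from the sample titles. FLAG and WT, and crosslinked and native libraries, were compared with limma 3.58.1 in R 4.3.3 (lmFit and eBayes with a trend), with Benjamini-Hochberg adjustment over all genes. Calls needed an adjusted p under 0.05 and a log2 fold change beyond 0.58, which are thresholds that the study used. The limma steps were tested on simulated data. For each comparison the text names the 4 members with the largest and the 4 with the smallest log2 fold change, all called members where there are at most 10, and members chosen by role (the stalk proteins, Rpsa, Rpl5, Rpl11, Rps6 and the paralogue pairs), and other members named were chosen after their values were seen. Results of some single genes are not reported here. The members, the gene lists and these rules were chosen with earlier results of these data known.

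Exons, snoRNA genes and transcripts were read from the GENCODE M21 annotation (GRCm38), which holds 15864 of the gene identifiers and those of all 81 members, and start windows came from RefSeq (GRCm38.p6). Member coordinates are those of the matrix. Each 75-base window of 1 transcript per member was searched in the genome on both strands. Same-numbered FLAG and WT libraries did not deviate together (correlations from -0.43 to -0.15), and the comparisons were fitted without the replicate number as a block. Same-numbered crosslinked and native libraries of a genotype did deviate together (0.15 to 0.39), though the labels do not say that they share a culture, so the calls with the block stand beside that comparison. Alternatives were a pseudocount of 1, a minimum linear mean of 10, TMM factors, quantile normalization, removal of length and GC trends in 20 bins, array weights, no trend in eBayes, the replicate block, other sets of groups in the fit and each library left out. The removal of a trend on gene span, the fit of both genotypes together, the replicate block within genotype and a crossed block were chosen only after seeing the data. Summaries and figures were made in Python 3.11.15 with pandas 2.3.3, numpy 2.4.6, matplotlib 3.10.9 and scipy 1.17.1.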

Additional observations from a re-analysis of the deposited data

How the results depend on the processing

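The direction of the members' median held in all 6 comparisons under every alternative run. It ranged from 0.17 to 0.28 for FLAG over WT after crosslinking, 0.29 to 0.79 in native conditions, 0.12 to 0.49 over all libraries, -1.30 to -1.02 for crosslinked over native in WT, -1.71 to -1.25 in FLAG, and -0.47 to -0.03 for the difference between protocols. With single libraries left out, these medians ranged from 0.17 to 0.26, 0.29 to 0.79, 0.25 to 0.49, -1.30 to -1.02, -1.71 to -1.25 and -0.47 to -0.04.

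Counts of called members depended on the setting, and the cause was not tested. A share of all genes called is given above for the main settings and for the fit of both genotypes together. Among the fits with a library left out, only those without FLAG native replicate 2 have such a share. The other counts show how far the calls moved and do not set the members against other genes. In WT, the 11 members called lower with crosslinking became 0 with a pseudocount of 1, a minimum mean of 10 or only the 2 groups compared, 7 with TMM factors, 1 without a trend in eBayes, and 58 with array weights or with both genotypes in 1 fit. In FLAG, the 15 became 4 with a pseudocount of 1, 1 with a minimum mean of 10 or with length and GC trends removed, 2 with TMM factors, 3 without a trend, 0 with only the 2 groups compared, 8 with the gene span trend removed, 65 with array weights and 58 with both genotypes in 1 fit. With single libraries left out the counts ranged from 0 to 18 in WT and from 0 to 68 in FLAG. The members called higher in FLAG were 12 in native conditions and 5 over all libraries with array weights, and ranged from 0 to 29 and from 0 to 10 with single libraries left out. After crosslinking and for the difference between protocols no gene of the whole table was called with the settings of the report, so a count of 0 members there is no sign of stability.

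With the replicate block, 0 members were called in WT and 2 in FLAG for the protocol, and 0 in each comparison of FLAG and WT. Replicates with the same number deviated together across protocols (0.18 and 0.15 in FLAG, 0.30 and 0.39 in WT), and a replicate block within genotype called 0 members in WT and 0 in FLAG. The crossed block after crosslinking called 0.

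Among the members named for an extreme value in a comparison, the sign changed in 9 cases, and other members were not followed through every setting. Over all libraries Rps3 had 0.0243 for FLAG over WT with array weights, and for crosslinked over native in FLAG Rpl5 had -0.0334 with length and GC trends removed and -0.0351 with array weights. With single libraries left out, FLAG over WT after crosslinking ranged from -1.34 (without FLAG replicate 2) to 0.270 (without FLAG replicate 1) for Rps3 and from -0.98 to 0.118 (the same libraries) for Rpl10, and in native conditions from -0.56 to 0.0731 (without WT replicate 1) for Rpl35a. For crosslinked over native in FLAG the range was -0.24 (without crosslinked replicate 2) to 0.52 (without crosslinked replicate 1) for Rpl5, which had -0.0834 without native replicate 2, and -0.29 to 1.32 (the same libraries) for Rps3.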
